A study of Mus musculus with 56 samples.

Results

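Livers taken 8 h after a single dose of the gapmer TS-2 were compared with livers taken 8 h after the gapmer NTS-1. The comparison rests on the arrays titled TS-2 and NTS-1 at that hour, which are 7 of the 56 arrays of the series: 4 TS-2 mice and 3 NTS-1 mice, with 1 array per mouse. Locked nucleic acid (LNA) gapmers are antisense oligonucleotides with chemically locked ends and a DNA middle, which lets RNase H cut the RNA they bind. The labels call NTS-1 non-toxic and TS-2 toxic. The sources used here give neither base sequence nor target gene for them, so the gapmers are described by their labels alone. All mice were male CD-1, an outbred stock, aged 6 to 8 weeks at dosing. Both gapmers were injected under the skin at 25 mg/kg in 10 mL/kg of Dulbecco's phosphate buffered saline, and 3 vehicle mice taken at 8 h had received the saline alone. Of the 10 mice dosed per group and time, the arrays used the 3 or 4 livers ranked highest for minor hepatic hypertrophy, so the groups do not stand for every dosed mouse.

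Type I interferons are cytokines that cells release when sensors find foreign or misplaced nucleic acid. They bind a receptor present on nearly all cells, whose kinases activate transcription factors. These bind interferon-stimulated response elements before many genes, and their products degrade RNA, block translation, modify proteins or present antigen. Usp18 limits the signal at the receptor, and Irf7 amplifies it by driving further interferon genes. In the liver, hepatocytes, Kupffer cells and sinusoidal endothelial cells can all respond to it.

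The livers carried the markers of their labelled tissue. Of 15 hepatocyte markers 12 were measured, and their mean log2 level lay between 14.87 and 15.12 in the TS-2 mice and between 14.92 and 14.97 in the NTS-1 mice. Arrays were alike in range: 38.7% to 38.9% of named probe sets reached an intensity of 32, the level under which a value is called dim here. Pearson correlations over tested genes were 0.979 to 0.988 among TS-2 mice, 0.986 to 0.988 among NTS-1 mice and 0.976 to 0.983 between them. All group sizes are small, and this limits the precision of every value.

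The main difference was an interferon programme that was high in the NTS-1 livers and near vehicle level in the TS-2 livers. Of 9137 genes tested, 82 differed between TS-2 and NTS-1 at an adjusted p under 0.05 (limma, Benjamini-Hochberg), which is 0.897%. All 82 were lower after TS-2, and their log2 differences ran from -7.68 for Ifit1 to -0.43 for Ifitm3, with a median of -2.39. With intensities below 32 raised to 32, since such dim values give only a bound, the median was -1.99, and the difference was at least 2-fold for 62 genes, at least 4-fold for 41 and at least 16-fold for 11. No gene was higher after TS-2 by the same test, where 138 genes were higher and 231 lower at an unadjusted p under 0.05, and the smallest adjusted p of a higher gene was 0.096. A fit with array weights, which count deviant arrays less, gave 174 genes, of which 23 were higher after TS-2.

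**Figure D1:**
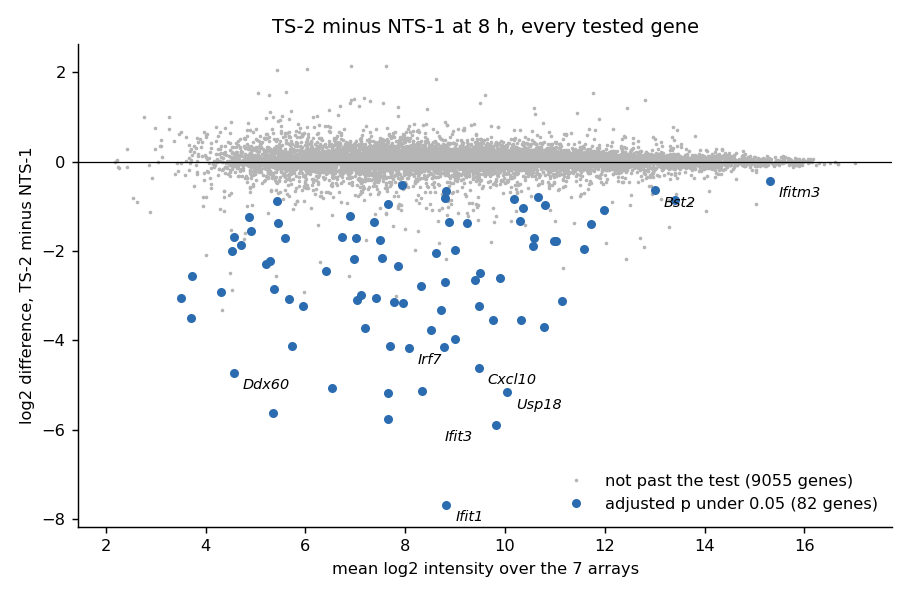
Log2 difference, TS-2 minus NTS-1 at 8 h (vertical axis), against the mean log2 intensity over the 7 arrays (horizontal axis) for the 9137 tested genes, with the 82 genes past the test in blue. All blue points lie below 0, from the dimmest to the brightest genes, and Ifit1 is lowest at -7.68.

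For all 82 genes the highest TS-2 mouse lay below the lowest NTS-1 mouse. These genes were chosen by a test on the same mice, so this separation is no further support. Among all tested genes the groups were apart in that direction for 327, or 3.58%, and in the other direction for 299, or 3.27%. In 17 of the 82 every TS-2 mouse and every vehicle mouse at 8 h was dim. Such a gene entered the test through other arrays and had to differ where these were the NTS-1 arrays, so its p-value then adds no support. For those described, among them Ddx60, Nlrc5, Ms4a4c and Ms4a4b, the fold is a lower bound with values below 32 raised to 32. Of the 23 genes past the test that had further probe sets tested, these were lower after TS-2 in 23, and at least 1 further probe set also passed in 18. Probes of close relatives, such as the Ifit, Gbp and Ms4a genes, may bind each other's transcripts, which was not tested.

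The 7 interferon lists hold sensors, transcription factors, Ifit and Ifitm proteins, oligoadenylate synthetases, interferon-inducible GTPases, the ISG15 system and other effectors. Of their 106 measured members 86 were tested and 49 passed, all lower after TS-2, beside 0.897% of all tested genes. The same share stands beside the counts of each list below. Some of the 49, Ddx60 and Nlrc5 among them, were dim in every TS-2 and vehicle mouse at 8 h, and their calls add no support. Over 42 lists in all, 53 of the 82 genes were members of some list and 29 of none. The lists were drawn up with earlier results of these data known, so their counts describe the response and are no independent evidence of it.

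Promoters are shown with and without an exact match to the core of the interferon-stimulated response element. They are examples chosen after the matches were known and not a fair sample. A window without a match may still hold a variant of the element. The core searched was a pair of GAAA blocks separated by 2 bases of any kind, on either strand, with overlapping matches allowed. RefSeq windows on build GRCm38.p6, from 250 bases before to 50 after a gene's start, were matched for 65 of the 82 genes. Each sequence below gives the 250 bases before the start in the gene's own direction, and capitals mark the core, which reads as TTTC blocks where it lies on the opposite strand.
Ifit1, chr19:34640639-34640888, plus strand: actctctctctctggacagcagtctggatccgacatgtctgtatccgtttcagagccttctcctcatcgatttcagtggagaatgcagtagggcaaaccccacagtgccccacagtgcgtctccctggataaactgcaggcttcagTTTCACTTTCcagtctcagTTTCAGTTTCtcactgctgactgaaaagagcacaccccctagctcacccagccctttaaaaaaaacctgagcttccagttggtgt
Ddx60, chr8:61927837-61928086, plus strand: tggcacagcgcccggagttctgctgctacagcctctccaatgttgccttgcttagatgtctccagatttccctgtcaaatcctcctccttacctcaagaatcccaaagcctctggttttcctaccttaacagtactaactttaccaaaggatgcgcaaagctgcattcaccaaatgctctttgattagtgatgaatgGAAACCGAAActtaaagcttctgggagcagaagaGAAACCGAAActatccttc
Oas1a, chr5:120907526-120907775, minus strand: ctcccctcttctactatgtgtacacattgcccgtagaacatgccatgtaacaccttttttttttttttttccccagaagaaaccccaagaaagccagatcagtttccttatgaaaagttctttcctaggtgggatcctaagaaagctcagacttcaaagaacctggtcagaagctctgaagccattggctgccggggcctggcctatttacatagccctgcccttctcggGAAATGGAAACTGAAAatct
Gbp3, chr3:142559794-142560043, plus strand: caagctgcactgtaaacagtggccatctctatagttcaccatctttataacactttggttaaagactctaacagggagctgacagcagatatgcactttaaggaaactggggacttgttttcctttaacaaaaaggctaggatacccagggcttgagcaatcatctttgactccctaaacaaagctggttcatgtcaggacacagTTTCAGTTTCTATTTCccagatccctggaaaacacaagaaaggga
Cxcl10, chr5:92348890-92349139, minus strand: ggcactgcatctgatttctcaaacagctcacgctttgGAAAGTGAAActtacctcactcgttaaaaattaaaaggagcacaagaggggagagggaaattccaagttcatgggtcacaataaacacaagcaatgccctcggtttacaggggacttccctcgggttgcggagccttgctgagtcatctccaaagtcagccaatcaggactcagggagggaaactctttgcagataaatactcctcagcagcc
Irf7, chr7:141266425-141266674, minus strand: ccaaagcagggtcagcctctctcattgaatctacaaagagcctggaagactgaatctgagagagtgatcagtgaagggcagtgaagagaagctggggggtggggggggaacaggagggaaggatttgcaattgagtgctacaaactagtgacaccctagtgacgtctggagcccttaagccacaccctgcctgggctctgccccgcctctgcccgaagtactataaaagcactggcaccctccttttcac
Oasl1, chr5:114922990-114923239, plus strand: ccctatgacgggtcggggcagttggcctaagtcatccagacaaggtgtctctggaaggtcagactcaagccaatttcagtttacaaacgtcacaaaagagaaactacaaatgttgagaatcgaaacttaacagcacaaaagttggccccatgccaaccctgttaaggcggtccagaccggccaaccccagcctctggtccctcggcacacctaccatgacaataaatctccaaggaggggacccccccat
Cmpk2, chr12:26468965-26469214, plus strand: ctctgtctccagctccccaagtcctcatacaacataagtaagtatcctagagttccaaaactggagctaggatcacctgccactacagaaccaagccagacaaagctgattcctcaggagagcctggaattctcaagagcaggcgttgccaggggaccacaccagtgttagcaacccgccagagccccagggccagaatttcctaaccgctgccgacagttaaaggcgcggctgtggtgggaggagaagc
Ifit1 and Ddx60 each held 2 separate cores, with the first base of the match 104 and 85 bases before the start in Ifit1 and 53 and 19 before it in Ddx60. In Oas1a and Gbp3 a pair of cores overlapped, and Cxcl10 had its single core 213 bases before the start. The windows of Irf7, Oasl1 and Cmpk2 held no match to these letters. Of the 12 genes with the largest falls 11 had a window, and the core was in 5 of them (Ifit1, Ifit3, Ddx60, Cxcl10 and Rsad2).

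The core was found in 27 of the 65 matched genes, or 41.5%. Over all 7499 tested genes with a window the share was 3.8%, or 282 genes, and over all 32851 windows of the table it was 3.4%. Among the matched members of the interferon lists, whether they passed or not, 36 of 83 held the core. For comparison the core stood before 1 of 16 cholesterol synthesis genes and 2 of 21 acute phase genes. A match is a run of letters and does not show that a factor was bound.

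**Figure D2:**
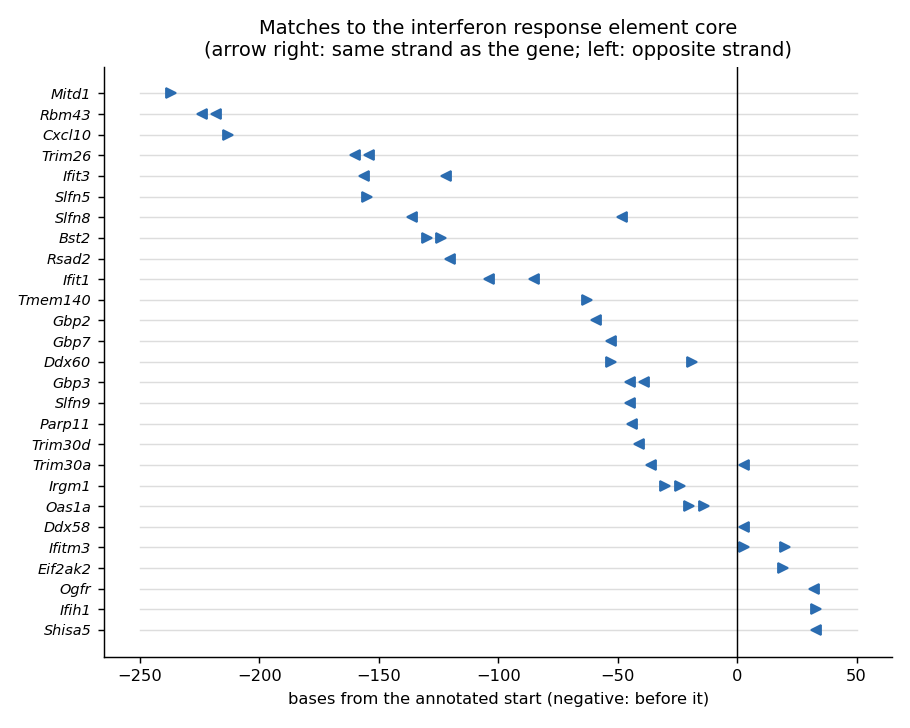
Distance of each match to the response element core from the annotated start, in bases (horizontal axis), for the 27 genes lower after TS-2 that hold a match (1 row per gene). Right-pointing arrows are on the gene's strand and left-pointing ones on the opposite strand, and Ifit1, for example, has matches 104 and 85 bases before its start.

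Among the Ifit and Ifitm proteins, which bind foreign RNA or block virus entry, 10 of 11 were measured and 4 of the 7 tested passed. Ifit1 had intensities of 8546, 13363 and 7401 in the NTS-1 mice and of 21.8, 40.4, 88.1 and 58.7 in the TS-2 mice, beside 22.1, 102 and 91.7 after vehicle. Its log2 difference was -7.68 ± 0.77 (SE, adjusted p = 5.96e-08). Every NTS-1 mouse thus stood far above every other mouse, and the TS-2 mice lay within the vehicle range apart from 1 just under it. Ifit3 read 7505, 15547 and 6765 after NTS-1 and 153, 264, 125 and 118 after TS-2 (log2 difference -5.89 ± 0.57, adjusted p = 3.13e-08). Ifit2 read 2287, 2796 and 2399 against 59.8, 89.2, 69.5 and 66.9 (-5.14 ± 0.45, adjusted p = 4.62e-09). Vehicle mice had 45.6, 48.5 and 49.7 for Ifit2, so all TS-2 mice were slightly above them. Ifitm3, which stops viruses from fusing, was bright everywhere, with 45653, 47808 and 50824 after NTS-1 and 32556, 37682, 39305 and 33830 after TS-2 (-0.43 ± 0.09, adjusted p = 0.0089). The call of Ifitm3 was lost without NTS-1 mouse 2, NTS-1 mouse 3 or TS-2 mouse 1, with an adjusted p of up to 0.091, and in a fit of the compared groups alone. Over the 10 measured members the median difference was -0.63, against 0.00 over all 18194 genes.

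Oligoadenylate synthetases make a short RNA-like messenger that activates RNase L. Of 7 measured members 3 were tested, and these 3 passed. Oasl1 read 1590, 2737 and 1724 after NTS-1 and 22.7, 23.4, 70 and 47 after TS-2 (-5.75 ± 0.58, adjusted p = 6.36e-08). Oasl2 read 664, 853 and 590 against 15.8, 15.8, 33.3 and 21.6, with 1 TS-2 mouse above the dim limit (-5.07 ± 0.48, adjusted p = 2.05e-08). Oas1a read 2062, 1794 and 1163 against 108, 142, 137 and 96.9, beside 91, 66.4 and 101 after vehicle (-3.77 ± 0.26, adjusted p = 2.34e-11). The other 4, Oas1b, Oas1c, Oas2 and Oas3, were below 32 in all 7 mice. The median of the 7 members was -1.72, and it was 0 once values below 32 were raised to 32, since most members were dim.

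The largest list, of 41 measured effectors outside these families, had 22 of 36 tested members past the test, all lower after TS-2, and a median of -1.71. Cmpk2, a mitochondrial nucleotide kinase, read 1354, 2106 and 1358 after NTS-1 and 33.8, 31.8, 64.7 and 51.4 after TS-2 (-5.17 ± 0.40, adjusted p = 2.71e-10). Rsad2, or viperin, which makes a chain-ending nucleotide, read 2192, 4173 and 1265 against 122, 132, 144 and 117 (-4.14 ± 0.45, adjusted p = 3.05e-07). Phf11d read 1101, 1298 and 836 against 57.5, 58.7, 62.2 and 64.2, and the vehicle mice had 60.2, 58.8 and 56.6 (-4.13 ± 0.24, adjusted p = 4.96e-13). In Phf11d the TS-2 and vehicle mice lay within a few units of each other. Ddx60, a helicase that aids RNA sensing, read 102, 213 and 166 after NTS-1 and 5.7, 6.25, 5.7 and 5.7 after TS-2, which is at least 4.80-fold lower. It was also dim in all vehicle mice at 8 h, and its NTS-1 arrays were enough to meet the filter. Its difference was thus fixed in advance, and its call among the 22 adds no support. Samd9l, a relative of the growth-restricting Samd9, read 518, 865 and 595 against 35.3, 60.5, 55 and 47 (-3.73 ± 0.27, adjusted p = 8.38e-11). Of the 41 members 39 had a lower mean after TS-2, beside 30.9% of all measured genes, many of them at the floor, and 41.2% of tested ones. In 37 the groups were apart in that direction, beside 2.01% of measured and 3.58% of tested genes. The calls of Bst2, Ifi27, Parp11 and Trim30d were lost when some single mouse was left out, and the other 18 were kept.

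ISG15 is a ubiquitin-like tag, and this system was represented by 5 measured genes, of which 2 passed. The Isg15 gene itself was not among the 5. Usp18, the protease that removes the tag and restrains the interferon receptor, read 7513, 7804 and 9270 after NTS-1 and 142, 194, 368 and 266 after TS-2 (-5.16 ± 0.58, adjusted p = 4.22e-07). Vehicle mice had 51.3, 178 and 201, so that a pair of TS-2 mice exceeded them. Herc6, a ligase of the same system in mice, read 893, 1138 and 874 against 77.4, 131, 219 and 172 (-2.78 ± 0.53, adjusted p = 0.0024). The remaining members, Uba7, Ube2l6 and Usp25, had differences of -1.08, -1.44 and -0.43 and adjusted p-values of 0.39, 0.26 and 1.0.

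Interferon-inducible GTPases attack the vacuoles in which pathogens live, and 6 of 11 tested members passed, with a median of -2.18 over 13 measured. Gbp6 read 7968, 9182 and 6009 after NTS-1 and 368, 314, 1020 and 991 after TS-2 (-3.70 ± 0.80, adjusted p = 0.011). Gbp3 read 2529, 3159 and 2089 against 248, 249, 347 and 256 (-3.23 ± 0.58, adjusted p = 0.00098). Gbp7 read 1839, 2174 and 1765 against 191, 360, 462 and 273 (-2.65 ± 0.58, adjusted p = 0.012). Vehicle values spread widely for Gbp6, from 448 to 1536, but closely for Gbp3, at 210, 249 and 242. In both genes they overlapped the TS-2 mice, in Gbp3 only at the top of the vehicle range. Irgm1, which directs the other members to their targets, read 2791, 2789 and 2473 against 336, 303, 794 and 477 (-2.60 ± 0.61, adjusted p = 0.025). Leaving out some single mouse ended 5 of the 6 calls, all but that of Gbp3. Gbp6 was lost without NTS-1 mouse 1 or 2 or TS-2 mouse 1 or 2 (adjusted p up to 0.082), and Gbp7 without NTS-1 mouse 1 or 2 or TS-2 mouse 1 (up to 0.092). Irgm1 was lost when any mouse other than TS-2 mouse 3 was left out, with an adjusted p of up to 0.14. Gbp2 was lost without NTS-1 mouse 1 or 2 or TS-2 mouse 1 or 4 (up to 0.21), and Ifi47 when any mouse other than TS-2 mouse 3 was left out (up to 0.26).

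Sensors of RNA and DNA start the interferon response and are also induced by it, and 7 of 11 tested members passed. Zbp1, a sensor of Z-form nucleic acid, read 1927, 1905 and 1019 after NTS-1 and 120, 198, 185 and 135 after TS-2 (-3.31 ± 0.59, adjusted p = 0.00098). Eif2ak2, the kinase PKR that halts translation, read 403, 460 and 475 against 39.7, 44.8, 90.8 and 44.8 (-3.10 ± 0.53, adjusted p = 0.00056). Dhx58, the helicase LGP2, read 364, 572 and 445 against 56, 56.7, 59.4 and 56.5 (-2.99 ± 0.32, adjusted p = 1.6e-07). In Eif2ak2 all TS-2 mice lay within the vehicle range of 39.3 to 93.7, whereas in Zbp1 they stood slightly above the vehicle mice, which had 105, 118 and 118. Ddx58, the sensor RIG-I, read 695, 1033 and 953 against 151, 237, 258 and 224 (-2.05 ± 0.29, adjusted p = 2.7e-05). Tlr7, Tlr9, Cgas, Aim2 and Ifi203 were below 32 in all 7 mice. The 17 measured members had a median of -0.87. Tlr3 lost its call when any of the 7 mice was left out (adjusted p from 0.093 to 0.20), and Ifih1 without NTS-1 mouse 3 or TS-2 mouse 1 (up to 0.078).

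Transcription factors of the pathway showed an unequal picture, with 5 of 13 tested members past the test, all lower after TS-2, and a median of -0.44. Irf7 read 1438, 1628 and 1186 after NTS-1 and 66.6, 66.6, 98.3 and 86.1 after TS-2 (-4.17 ± 0.37, adjusted p = 6.04e-09). Irf9, a DNA-binding factor of the interferon response, read 1103, 1092 and 1138 against 207, 275, 296 and 378 (-1.97 ± 0.39, adjusted p = 0.0036). Parp14, an ADP-ribosyl transferase, read 724, 923 and 661 against 51.8, 93.1, 144 and 78.6 (-3.15 ± 0.72, adjusted p = 0.02). In all 3 genes the NTS-1 mice stood well above every TS-2 mouse. Nlrc5, the activator of class I genes, read 41.7, 76.6 and 51.3 against 14.9, 11.8, 15.2 and 18.8, at least 1.71-fold lower. It was dim in every TS-2 and vehicle mouse at 8 h, so its call adds no support. The Nlrc5 call did not survive the loss of any of the 7 mice, with adjusted p-values from 0.050 to 0.37, and Parp14 lost its call in 5 of the 7 cases (up to 0.15), each NTS-1 mouse and TS-2 mice 1 and 4. Nmi, the fifth member past the test, lost its call without NTS-1 mouse 2 or 3 or TS-2 mouse 1, 3 or 4 (up to 0.52). Irf3, which is present before any signal, had a difference of -0.06 and an adjusted p of 1.0.

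**Figure D3:**
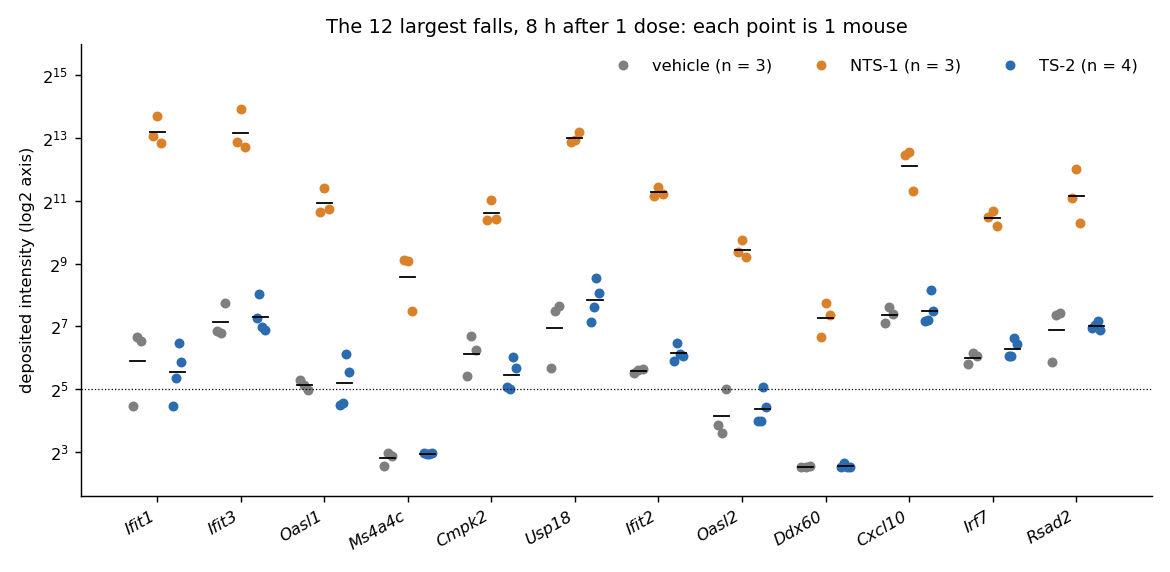
Deposited intensity on a log2 axis (vertical) for the 12 genes with the largest falls (horizontal) in vehicle (grey, n = 3), NTS-1 (orange, n = 3) and TS-2 mice (blue, n = 4) at 8 h. Points are mice, bars are means of log2 values and the dotted line is the dim limit of 32. Every orange point stands above every blue point of its gene, as the rule that chose these genes required.

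Receptors, kinases and interferon genes did not show this pattern. Of 19 measured members 13 were tested and none passed limma's adjusted threshold, with 1 at an unadjusted p under 0.05 and a median of 0.00. Ifnar2, a chain of the type I receptor, read 5410, 4602 and 4871 after NTS-1 and 4501, 3764, 4633 and 5727 after TS-2 (-0.10 ± 0.18). Mavs, the adaptor below the RNA sensors, had a difference of -0.02 ± 0.30. Transcripts of Ifna4, Ifnb1 and Ifng were below 32 in all 7 mice, with no level above 4.6, so any change in them was not detectable here.

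Among chemokines 1 of 11 tested members passed, beside 0.897% of all tested genes. Cxcl10, which draws T cells and natural killer cells, read 5676, 6050 and 2524 after NTS-1 and 143, 146, 288 and 178 after TS-2, beside 139, 194 and 169 after vehicle (-4.62 ± 0.71, adjusted p = 0.0001). Cxcl9, a relative induced by interferon gamma, lay between 2088 and 2552 after NTS-1 and between 563 and 1125 after TS-2 (-1.42, adjusted p = 0.6). Of the 22 measured chemokines 12 were below 32 in all 7 mice, and the median was 0.00. Class I antigen presentation had no member past the test among 13 tested, with 5 at an unadjusted p under 0.05 and a median of -0.52. Of its 14 measured members 12 had a lower mean after TS-2, beside 30.9% of all measured genes and 41.2% of tested ones, and 2 a higher one. For 9 of the 14 the groups were apart with TS-2 lower, beside 2.01% of measured genes. Tap1, at -2.87, had the lowest difference of the list. B2m, the light chain of class I molecules, differed by -0.07 ± 0.07, and Psmb8 and Psmb9, subunits of the immunoproteasome, by -1.16 and -1.37 (adjusted p = 0.12 and 0.2).

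In the list of cell death mediators 2 of 19 tested members passed, both lower after TS-2, beside 0.897% of all tested genes. Of 24 measured members 16 had a lower mean after TS-2, beside 30.9% of all measured genes and 41.2% of tested ones, and 6 a higher one. The groups were apart with TS-2 lower for 6, beside 2.01% of measured genes. Tnfsf10, at -2.24, and Casp4, at -1.73, did not pass. Mlkl, which opens the membrane in necroptosis, read 400, 439 and 269 after NTS-1 and 101, 117, 115 and 95.6 after TS-2, beside 61, 115 and 113 after vehicle (-1.76 ± 0.30, adjusted p = 0.00065). Daxx, a histone chaperone and Fas-binding protein, read 251, 288 and 346 against 153, 129, 189 and 146 (-0.94 ± 0.20, adjusted p = 0.011). Both genes are also interferon-induced, and their vehicle levels lay with those of TS-2. The Daxx call was lost without NTS-1 mouse 2 or 3 or TS-2 mouse 2, with an adjusted p of up to 0.14, and in a fit of the compared groups alone. Ripk3, the kinase upstream of Mlkl, was below 32 in all 7 mice.

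Outside the lists, 5 genes of the Ms4a family of membrane proteins, named after their values were seen, were lower after TS-2. Ms4a4c read 549, 537 and 181 after NTS-1 and 7.71, 7.56, 7.57 and 7.71 after TS-2, at least 11.8-fold lower. It was dim in every TS-2 and vehicle mouse at 8 h, so its p-value adds no support and is left out. Ms4a6b, Ms4a6c and Ms4a6d had differences of -3.04, -2.34 and -2.15. Ms4a4b, dim in all TS-2 mice, was at least 2.86-fold lower, and its call was lost when any mouse other than TS-2 mouse 2 was left out, with an adjusted p of up to 0.23.

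Among markers of blood-borne cells few passed the test. Fcgr1, a high-affinity antibody receptor of monocytes and macrophages, read 357, 298 and 105 after NTS-1 and 27.6, 43.1, 62.9 and 38.4 after TS-2 (-2.44 ± 0.46, adjusted p = 0.0019), and was not called in a fit of the compared groups alone. It was the single member past the test among 15 tested monocyte and macrophage markers, of which 4 had an unadjusted p under 0.05. Of 20 measured markers 17 had a lower mean after TS-2, beside 30.9% of all measured genes and 41.2% of tested ones, and the median was -0.35. The mean log2 level of the list was between 7.54 and 8.36 in the NTS-1 mice and between 7.22 and 7.58 in the TS-2 mice, while Itgam and Ccr2 were below 32 in all 7. Resident Kupffer cell markers had 7 of 14 members lower, a median of -0.02 and list levels of 8.31 to 9.03 after NTS-1 and 8.41 to 8.60 after TS-2. Of 11 markers of dendritic cells 7, Siglech and Flt3 among them, were below 32 in all 7 mice, and Bst2, the membrane tether tetherin that many cells induce, was the 1 past the test. It read 11195, 10368 and 10247 against 6139, 7425, 6937 and 6642 (-0.65 ± 0.13, adjusted p = 0.0073, and 0.067 without NTS-1 mouse 1). Neutrophil and lymphocyte markers were below 32 in all 7 mice for 9 of 13 and 12 of 18. In whole liver, fewer cells of a type and less RNA per cell cannot be told apart, and the part these cells had in the result was not tested.

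In 31 of the 42 lists no gene passed limma's test, and of their 409 tested members 25 had an unadjusted p under 0.05, or 6.11%, beside 4.04% of all tested genes. Medians of these lists ran from -0.52, for class I presentation, to 0.16, for endoplasmic reticulum folding. Cyp3a11, a drug-metabolising enzyme, read 25991, 28480 and 24299 after NTS-1 and 25933, 28118, 25933 and 24593 after TS-2, a difference of -0.00 ± 0.09. Among acute phase proteins 21 of 24 measured members had a lower mean after TS-2, beside 30.9% of all measured genes and 41.2% of tested ones. The median was -0.09, and none of 23 tested members passed limma's test (0 at an unadjusted p under 0.05). Their mean log2 level lay between 13.03 and 13.10 in the NTS-1 mice and between 12.79 and 12.92 in the TS-2 mice, without overlap, and between 12.72 and 12.77 after vehicle. Single members were apart with TS-2 lower in 2 of the 24, beside 2.01% of measured genes. The lowest differences were those of Mt2, Lcn2 and Mt1, at -1.70, -1.05 and -0.915. Saa1 read 13162, 9446 and 11779 against 7532, 15617, 12536 and 8522 (-0.10 ± 0.42), while the metal-binding Mt2 differed by -1.70 ± 1.21 and the iron-carrier binding Lcn2 by -1.05 ± 0.84. Cyp7a1, which sets the pace of bile acid synthesis, differed by 0.26 ± 0.60, and Hspa5, the main chaperone of the endoplasmic reticulum, by 0.25 ± 0.33. With these errors moderate differences in Saa1 or Cyp7a1 would not have been detectable. Gadd45g, a stress-induced growth regulator of the immediate early list that was named after its values were seen, lay between 718 and 1384 after NTS-1 and between 150 and 331 after TS-2 (-2.18, adjusted p = 0.094).

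**Figure D4:**
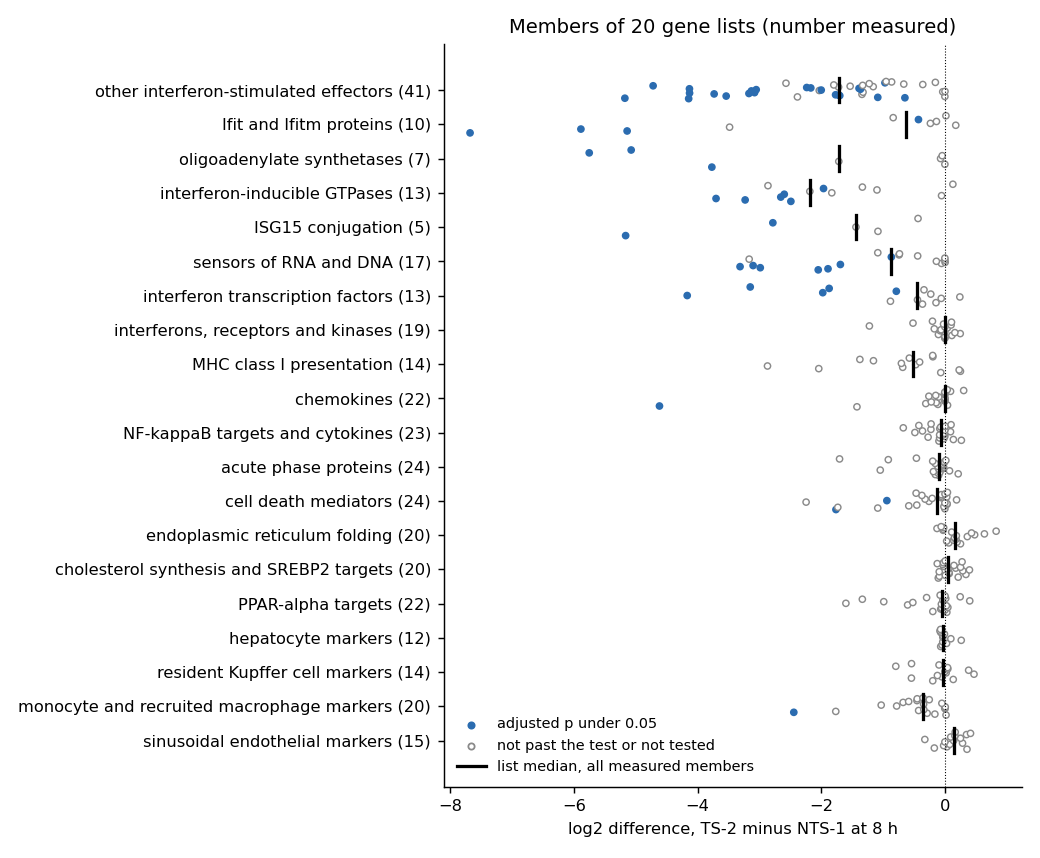
Log2 difference, TS-2 minus NTS-1 at 8 h (horizontal axis), for the measured members of 20 gene lists (rows, number measured in brackets). Blue points passed the test, open points did not or were not tested, and bars are list medians, which are -1.71 for the other effectors, -2.18 for the GTPases and -0.03, -0.02 and 0.14 for the hepatocyte, Kupffer cell and sinusoidal endothelial markers.

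The vehicle mice place the difference between the gapmers. NTS-1 and vehicle differed in 81 genes, or 0.887% of those tested, of which 80, or 0.876%, were higher and 1 lower after NTS-1. TS-2 and vehicle differed in 0 of 9137 genes by limma, with 387 at an unadjusted p under 0.05, in 23 genes without the filter on dim genes and in 49 with array weights. These comparisons share mice with the comparison of TS-2 and NTS-1, so their values are set side by side. For Ifit1 the log2 difference was 7.32 ± 0.82 for NTS-1 minus vehicle and -0.36 ± 0.77 for TS-2 minus vehicle. For Irf7 it was 4.46 ± 0.40 and 0.29 ± 0.37, for Usp18 6.06 ± 0.62 and 0.90 ± 0.58, and for Cxcl10 4.74 ± 0.76 and 0.12 ± 0.71. Over the 41 effectors the medians were 1.64 and 0.04, and over the 13 GTPases 2.38 and 0.00. TS-2 and vehicle mice overlapped in 77 of the 82 genes, and the remaining 5 compare with 5.87% of all tested genes in which these groups were apart.

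Other mice taken at 16 and 72 h showed how long the difference lasted. At 16 h, with 3 TS-2 and 4 NTS-1 mice, the TS-2 mean was lower for 81 of the 82 genes, beside 36.8% of all tested genes. The groups were apart for 66 of them, beside 3.44%, and the median difference was -1.38, against 0.06 over all tested genes. At 72 h, with 4 TS-2 and 3 NTS-1 mice, 46 of the 82 were lower, beside 39.5% of all tested genes, and the median was -0.04. Ifit1 read 1498, 4481, 1448 and 2197 in the NTS-1 mice at 16 h and 177, 79.1 and 237 at 72 h. In the TS-2 mice it read 31.6, 85.2 and 47.3 at 16 h and 137, 40.5, 563 and 39.9 at 72 h. The NTS-1 level thus came down to the range of the other groups by 72 h, where 1 TS-2 mouse, number 3, was the highest of all.

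The change of the difference with time was tested directly. Between 8 and 16 h it differed for 3 genes, or 0.0328%, all with a more negative difference at 8 h. For Ddx60 and Ifi209 the NTS-1 mice at 8 h were enough to meet the filter, and the TS-2 mice were dim. Their direction was thus fixed in advance and adds no support. Gm9706, a predicted gene, read 3285, 2237 and 1994 after NTS-1 at 8 h and 613, 408, 279 and 386 at 16 h, while TS-2 mice had between 144 and 163 at 8 h and 161, 116 and 144 at 16 h (difference of differences -2.43 ± 0.26, adjusted p = 4.1e-06). Ddx60 had 16.2, 17.2, 10.3 and 39.8 after NTS-1 at 16 h, so that most mice were dim by then. Its change was -2.91 as fitted and -2.18 with values below 32 raised to 32. TS-2 mice were dim at both times, and raising makes dim mice equal, which removes their spread. Only the size of this bound can therefore be read, and its p-value is left out. Ifi209, a relative of the DNA sensor Ifi204, read 79.2, 35.2 and 50.4 after NTS-1 at 8 h, was dim in all 4 NTS-1 mice at 16 h, and was dim in every TS-2 mouse. Its fitted change of -2.17 rests on these dim values: it was -0.70 with values raised to 32, and its call was lost (adjusted p = 0.67). By contrast Irf7 changed by 0.25 ± 0.53 and Oas1a by -0.16 ± 0.37 between these times (adjusted p = 1.0 for both). Leaving out 1 mouse gave between 2 and 6 genes, with 6 without NTS-1 mouse 2 of 16 h.

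Between 8 and 72 h the difference changed for 58 genes, or 0.635%, in 46 towards a more negative value at 8 h and in 12 the other way. All 46 had also passed the test at 8 h, and those dim in every TS-2 mouse, such as Ifi209, add no support. The 5 negative ones with the smallest adjusted p were Gm9706, Ifi209, Phf11d, Oas1a and Samd9l, with changes from -3.38 to -3.94. Ifi209, at -3.38, was -0.70 with values below 32 raised to 32 and lost its call (adjusted p = 0.097). Leaving out 1 mouse gave between 44 and 55 genes, and 54 without TS-2 mouse 3 of 72 h. None of the 12 positive ones had passed the test at 8 h (limma adjusted p = 1.0 for each). Zfp24, a zinc finger protein, read 683, 684 and 745 after NTS-1 and 531, 671, 420 and 684 after TS-2 at 8 h, then 761, 714 and 625 against 211, 159, 210 and 108 at 72 h (1.75 ± 0.28, adjusted p = 0.00034). Myo1e, a membrane-linked myosin, read 225, 229 and 212 against 151, 122, 158 and 151 at 8 h and 150, 319 and 314 against 13.5, 13.5, 38.3 and 13.5 at 72 h. Its change was 3.20 as fitted (adjusted p = 0.00061) and 2.26 with values raised to 32 (adjusted p = 0.0084), since 3 of the 4 TS-2 mice were dim at 72 h. In Myo1e the TS-2 and NTS-1 mice did not overlap at 8 h, where the difference of -0.62 ± 0.38 did not pass the test. At that time the groups were apart in this direction for 3.58% of all tested genes. Cdc42, a small GTPase of cell polarity, had a change of 1.27 ± 0.14, Tmf1, a Golgi protein, of 2.64 (1.97 with values raised to 32), and Cxadr, a junction protein and virus receptor, of 2.51 ± 0.50 (adjusted p = 1.12e-06, 0.0021 and 0.0063). Of these 12 genes 7 belong to a list of falls at 72 h that was chosen on these data, so their direction there is no independent evidence.

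**Figure D5:**
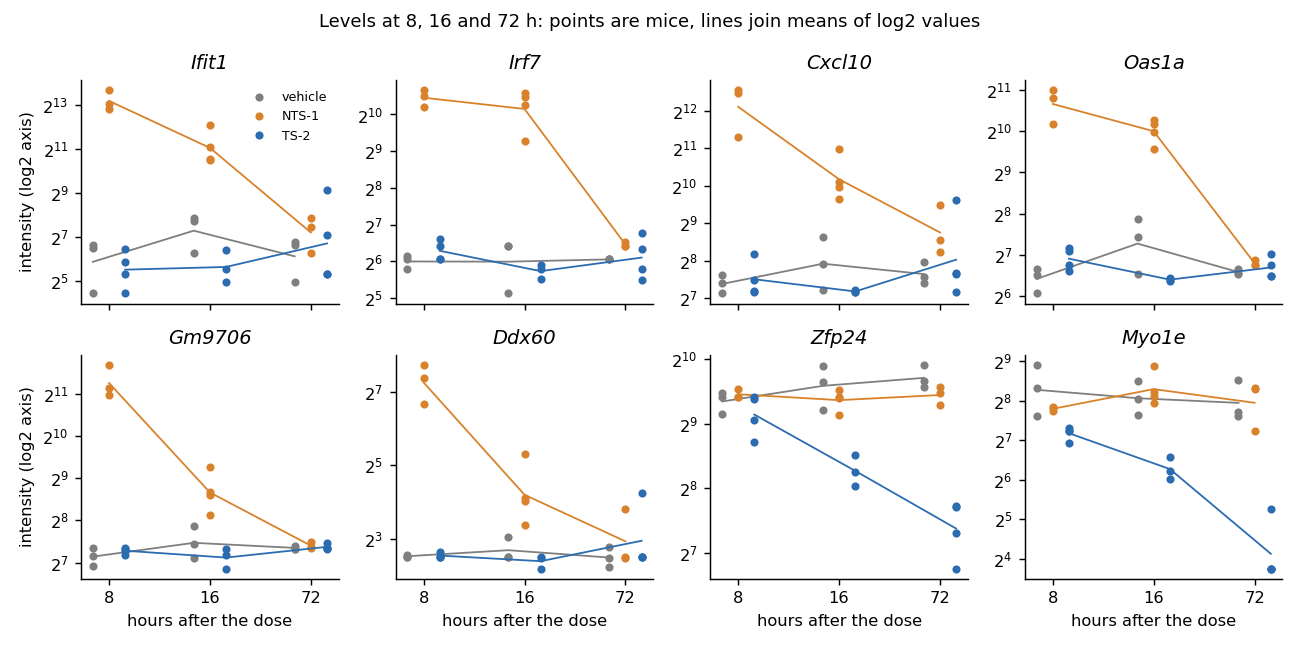
Intensity on a log2 axis (vertical) of 8 genes at 8, 16 and 72 h after the dose (horizontal) in vehicle (grey), NTS-1 (orange) and TS-2 mice (blue), with 3 or 4 mice per group and time and the times drawn at equal steps. Lines join means of log2 values. The 6 genes that passed the test at 8 h stand lower after NTS-1 at 72 h than at 8 h, whereas Zfp24 and Myo1e are lowest after TS-2 at 72 h.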

How the data were processed

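Each array (Affymetrix, mouse, 45101 probe sets) measured the liver RNA of 1 mouse. The authors deposited linear intensity values made with RMA, per the submitters' processing notes. The sources used here give no version or settings of RMA. RMA subtracts background and equalises the arrays, so shifts common to all genes cannot be seen. The deposited intensity values were converted to log2. The 37 single-dose arrays have a floor of 4.56, and the 2-week arrays were not used here.

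Probe sets were named by the series' annotation, in which 34958 had 1 gene, 932 several and 9211 none. The brightest probe set stood for a gene, giving 18194 genes. Genes reaching an intensity of 32 on at least 3 of the 37 arrays were tested, 9137 in all. One linear model over the 11 single-dose groups was fitted with limma 3.58.1 in R 4.3.3, with empirical Bayes moderation and Benjamini-Hochberg adjustment at 0.05. Leaving out every array that the comparison does not need was an alternative, as were other filters, normalizations, array weights, a replicate block and leaving out each mouse. A mouse of another gapmer group has a title and a description that give different times, and it enters only the estimate of spread. Within the groups, replicate numbers did not pair mice. No arrays were identical among 666 pairs.

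The comparison, the gene lists (686 of 765 members measured) and the rules were chosen with earlier results of these data known. Genes named were a panel of 20 (17 measured), the 12 largest falls and 12 largest rises past the test that reached 32 on at least 3 of the 7 arrays with groups apart, up to 4 members per list past the test or otherwise its 2 brightest, and the 5 smallest adjusted p-values per direction of each change with time. Members named beside these serve to describe a list and were picked after their values were seen. Promoter windows came from RefSeq.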

Additional observations from a re-analysis of the deposited data

Results flagged for a closer look

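The difference between TS-2 and NTS-1 changed between 8 and 16 h for 3 genes and between 8 and 72 h for 58, by the test of the change itself. Against 16 h the log2 changes were -2.43 for Gm9706, -2.17 for Ifi209 and -2.91 for Ddx60. Dim values enter those of Ifi209 and Ddx60, which were -0.70 and -2.18 with values below 32 raised to 32. The direction of both was fixed in advance, since their NTS-1 mice at 8 h were enough to meet the filter. Against 72 h they were -3.94 for Gm9706, -3.38 for Ifi209, -3.67 for Oas1a, -3.94 for Phf11d and -3.63 for Samd9l. In the other direction they were 1.27 for Cdc42, 2.51 for Cxadr, 3.20 for Myo1e, 2.64 for Tmf1 and 1.75 for Zfp24. With values raised to 32 those of Ifi209, Myo1e and Tmf1 were -0.70, 2.26 and 1.97.

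In the 4 TS-2 mice at 8 h, 1 mouse stood apart from the other 3 in 9 of 143 sets of values checked, where its gap to the nearest mouse, divided by the range, exceeded Dixon's critical value for 4 samples. Chance flags about 1 in 20 such sets. The ratio was 0.925 for Clec4g, 0.842 for Dusp1, 0.854 for Eif2ak2, 0.831 for Fgb, 0.913 for Gbp3 and 0.929 for Sgk1. It was 0.975 for the mean level of the Ppara target list, 0.948 for the hepatocyte markers and 0.917 for the stellate cell markers.

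The 3 mice given HTS-3, the gapmer labelled severely toxic, enter no comparison here. Their mean log2 levels over the 41 interferon effectors at 8 h were 8.042, 7.294 and 7.178, above the highest vehicle mouse at 7.158. The mouse with 7.178 is the one whose title and description give different times.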

How the results depend on the processing

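All 82 genes had a lower TS-2 mean under each setting in which they were tested. Of these genes 67 were tested in all 18 settings, where 41 kept every call, and the others in 16 or 17, where 7 did. With array weights the counts were 174 for TS-2 against NTS-1, 224 for NTS-1 against vehicle, 49 for TS-2 against vehicle, 19 for the change to 16 h and 143 for the change to 72 h. Without the filter on dim genes they were 23 for TS-2 against vehicle and 5 for the change to 16 h, and with the mean of probe sets the latter was 1. The effector median was -1.34 with values below 32 raised to 32 and -1.39 with the mean of probe sets, and the synthetase median was 0 with values raised. The cause was not tested. Leaving out 1 mouse gave 56 to 75 genes for TS-2 against NTS-1, 65 to 81 and 0 to 1 against vehicle, 2 to 6 and 44 to 55 for the changes with time, and medians of -1.87 to -1.61 for the effectors and -1.92 to -1.21 for the ISG15 system.

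With the replicate number as a block 65 genes passed, all lower after TS-2, and the ISG15 median was -1.78. Correlations of same-numbered mice were 0.022, -0.032 and -0.086 for TS-2 and NTS-1 at 8 h, 0.092, 0.246 and 0.412 for TS-2 and vehicle at 8 h, and 0.461, -0.033 and 0.231 for TS-2 and NTS-1 at 72 h. In no comparison were all above 0.1, so the numbers were not taken as pairs. Dim genes have only a bound at this signal.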
